A study of Mus musculus with 16 samples.

Results

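Motor neurons of the spinal cord fall into types that drive different muscle fibers, and 7 genes known to separate these types were followed in spinal cord RNA of transgenic mice. The 7 genes were chosen by symbol among the 18167 genes of the expression table, with results of these mice already in view, and all 7 were found. *Chodl*, *Mmp9* and *Calca* were taken as fast-type genes, *Esrrg*, *Esrrb* and *Sv2a* as slow or gamma-type genes, and *Calcb* as the paralog of *Calca*. The study asked how the transcriptome of the cord differs before and at the end of a motor neuron disease caused by a profilin1 transgene.

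All 16 mice carried a human profilin1 transgene, so no group was free of one. Mutant mice expressed hPFN1G118V and wild-type mice hPFN1WT, both cloned into the MoPrP.Xho plasmid, whose prion protein promoter is active in many cell types and not in motor neurons alone. The mutant young (MY) and wild-type young (WY) groups held 3 mice each, all 50 days old and without symptoms. The mutant old (MO) group held 5 mice at the end stage of disease, 175 to 245 days old, and the wild-type old (WO) group held 5 mice of 190 to 294 days. All were labelled male, and each library came from the spinal cord of a single mouse. The labels name 2 batches. Batch 1 held all MY and WY mice together with 3 MO and 3 WO mice, and the remaining 2 mice of MO and of WO formed batch 2. Within WO, age went with batch, at 190 days in batch 1 and 294 days in batch 2, so the effects of age and batch cannot be told apart there. The batch 2 MO mice were 224 and 175 days old. Within batch 2, age and genotype therefore cannot be told apart either. Values are log2(1 + FPKM), where FPKM is the fragment count scaled to transcript length and library size, after the authors' batch correction. How many reads stand behind any 1 value is unknown, and errors are therefore the spread between mice.

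Fast-firing alpha motor neurons innervate fatigable fibers and are the first to lose their muscle contacts in several forms of motor neuron disease, whereas slow alpha motor neurons resist longer. Gamma motor neurons innervate muscle spindles and set their sensitivity. The genes that tell these cells apart encode unrelated proteins, and outside motor neurons several of them are used widely, *Sv2a* in most neurons and *Calca* in peptide-containing sensory neurons. In RNA of whole cord, fewer cells of a type and less RNA per cell cannot be told apart.

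Some libraries stood apart. MO5 had *Xist* at 3.21, where the other 15 mice had at most 0.37, and the Y-linked gene *Ddx3y* at 1.95, where the others had at least 4.06, which goes against its male label. WY1 was low for several neuronal genes, among them *Slc6a5*, the glycine transporter of inhibitory spinal neurons, at 4.02 against 5.93 in WY2 and 5.79 in WY3. WO4 had the myelin gene *Mbp* at 5.36, where all other mice had 12.16 to 14.22. Results of the 7 genes and calls that involve MO are therefore also given without MO5, and those of young wild-type mice without WY1. The tissue itself was recognisable, since all 8 spinal cord markers were in the table and each of 5 *Hox* genes of the cervical to lumbar cord was at 2.51 or higher in every mouse.

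*Chodl* encodes chondrolectin, a membrane protein with a C-type lectin domain that marks fast motor neurons. Its level was 4.33, 4.43 and 4.45 in WY1 to WY3 and 4.25, 4.40 and 4.14 in MY1 to MY3. It was 4.48, 4.37, 4.36, 4.38 and 4.59 in WO1 to WO5 and 2.18, 2.68, 2.45, 3.49 and 2.67 in MO1 to MO5. Each MO mouse lay below each of the 11 others, and MO4 was the highest of the MO mice. MO had a mean of 2.70 ± 0.49 (SD, n = 5), WO of 4.44 ± 0.10 (n = 5) and MY of 4.26 ± 0.13 (n = 3). In FPKM this was 5.81 in MO, 20.7 in WO and 18.2 in MY. Its log2 fold change was -1.57 (SE 0.25) in MY vs. MO and -1.74 (SE 0.20) in WO vs. MO, or -1.56 and -1.73 without MO5. Within batch 1, *Chodl* was lower in MO than in WO by a log2 difference of -1.97, and within batch 2 by -1.40.

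*Mmp9* encodes matrix metalloproteinase 9, a secreted gelatinase that fast motor neurons express and that neutrophils also carry. It stood at 2.09, 2.48 and 2.33 in WY1 to WY3 and at 2.29, 2.45 and 2.26 in MY1 to MY3. In WO1 to WO5 it was 2.37, 2.26, 2.22, 2.28 and 2.48, and in MO1 to MO5 it was 1.54, 1.58, 1.497, 1.70 and 1.79. The MO mice were again the 5 lowest and did not overlap with any other group. Mean FPKM was 2.09 in MO and 4.01 in WO. The log2 fold change of 1 + FPKM was -0.71 (SE 0.08) in MY vs. MO and -0.70 (SE 0.07) in WO vs. MO, or -0.75 and -0.74 without MO5. At so low a level the added 1 shrinks a log2 difference, and with 0.1 added instead the *Mmp9* values were -0.93 and -0.91. Batch 1 mice gave -0.74 for *Mmp9* in WO vs. MO and batch 2 mice -0.63.

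*Calca* encodes calcitonin and the alpha form of calcitonin gene-related peptide (CGRP), which motor neurons release at the muscle. Its level was 5.89, 5.83 and 5.88 in WY1 to WY3 and 5.71, 5.92 and 5.58 in MY1 to MY3. It was 5.70, 5.57, 5.61, 5.22 and 5.21 in WO1 to WO5 and 6.83, 7.60, 6.22, 6.61 and 6.95 in MO1 to MO5. All MO mice lay above all others, the opposite of *Chodl* and *Mmp9*, and the lowest WO values were those of the batch 2 mice WO4 and WO5. Mean FPKM was 120 in MO, from 73.6 to 194, against 43.5 in WO and 52.7 in MY. On the log2 scale the fold change was 1.10 (SE 0.26) in MY vs. MO and 1.38 (SE 0.22) in WO vs. MO, or 1.08 and 1.35 without MO5. For *Calca* in WO vs. MO, batch 1 mice gave 1.26 and batch 2 mice 1.56. The ratio of *Calca* to *Chodl* in FPKM was 1.56 to 3.07 in the WY, MY and WO mice. In MO1 to MO5 this ratio was 31.9, 35.8, 16.5, 9.38 and 22.7.

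*Calcb*, which encodes the beta form of CGRP, was at 3.99, 3.88 and 4.08 in WY1 to WY3 and at 4.14, 4.25 and 4.12 in MY1 to MY3. It was 4.29, 4.18, 4.20, 3.86 and 3.99 in WO1 to WO5 and 4.33, 5.07, 3.99, 4.37 and 4.60 in MO1 to MO5. The groups overlapped, since MO3 lay within the ranges of WY and WO and below that of MY, while MO2 was the highest mouse for *Calcb* as it was for *Calca*. *Calcb* had a log2 fold change of 0.30 (SE 0.21) in MY vs. MO and 0.37 (SE 0.17) in WO vs. MO, or 0.27 and 0.33 without MO5. In WO vs. MO it was 0.24 in batch 1 and 0.56 in batch 2. Once the group means were removed, the deviations of *Calca* and *Calcb* over the 16 mice had a Pearson r of 0.963. The MO mice weigh most in this r. Their SD was 0.51 for *Calca* and 0.40 for *Calcb*, against at most 0.23 and 0.17 in any other group. The peptides are encoded by near-identical stretches in these genes, so reads may have been shared between them, which was not tested.

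*Esrrg* encodes the estrogen-related receptor gamma, an orphan nuclear receptor used as a marker of gamma motor neurons. It was at 3.53, 4.35 and 4.10 in WY1 to WY3 and at 4.23, 4.16 and 4.21 in MY1 to MY3. It was 4.11, 4.26, 4.35, 4.17 and 4.24 in WO1 to WO5 and 3.78, 3.89, 3.70, 3.81 and 3.79 in MO1 to MO5. MO lay below MY and WO without overlap, but the lowest mouse of all was WY1. *Esrrg* had a log2 fold change of -0.40 (SE 0.05) in MY vs. MO and -0.43 (SE 0.05) in WO vs. MO, and the same values without MO5. In WO vs. MO it was -0.45 in batch 1 and -0.41 in batch 2. Other annotated genes overlap *Esrrg*, on both strands, and reads from the overlaps may be counted with it.

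*Esrrb* encodes the related receptor beta. It was at 1.59, 1.79 and 1.88 in WY1 to WY3 and at 1.85, 1.88 and 1.87 in MY1 to MY3. It was 2.07, 1.87, 1.99, 1.82 and 2.04 in WO1 to WO5 and 1.59, 1.66, 1.57, 1.52 and 1.73 in MO1 to MO5. MO and WO did not overlap, nor did MO and MY, while WY1 lay within the MO range. Its log2 fold change was -0.25 (SE 0.05) in MY vs. MO and -0.34 (SE 0.06) in WO vs. MO, or -0.28 and -0.37 without MO5. With 0.1 in place of 1 added to FPKM, *Esrrb* had -0.35 and -0.46. Batch 1 gave -0.37 for *Esrrb* in WO vs. MO and batch 2 -0.30.

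*Sv2a* encodes a synaptic vesicle glycoprotein that is kept at the terminals of slow motor neurons. It was at 6.72, 7.11 and 7.06 in WY1 to WY3 and at 7.10, 7.05 and 7.13 in MY1 to MY3. It was 6.95, 6.95, 7.06, 7.11 and 7.12 in WO1 to WO5 and 6.87, 6.79, 6.86, 6.80 and 6.93 in MO1 to MO5. The MO mice lay below WO and MY, by a gap of 0.02 between the nearest MO and WO mice, and WY1 was the lowest. For *Sv2a* the log2 fold change was -0.25 (SE 0.04) in MY vs. MO and -0.19 (SE 0.05) in WO vs. MO, or -0.27 and -0.21 without MO5. In WO vs. MO it was -0.14 in batch 1 and -0.25 in batch 2.

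A gene was called when limma gave it a Benjamini-Hochberg FDR of at most 0.05 over all 18167 genes and a fold change of at least 1.5, a log2 value of 0.585. In MY vs. MO, 2 of the 7 genes were called lower in MO (*Chodl* and *Mmp9*), where 0.787% of all genes were, and 1 higher (*Calca*), where 4.11% were. In WO vs. MO the same genes were called, 2 lower and 1 higher, where 0.517% and 4.08% of all genes were. Since the 7 genes were picked with such results known, nothing is read from these counts. The median log2 fold change of the 7 genes was -0.25 in MY vs. MO and -0.34 in WO vs. MO, while that of all genes was 0.0047 and 0.00035. Both comparisons use the same MO mice. The calls of the 7 genes were the same without MO5. In WO vs. MO they were also the same within each batch, though in batch 2 the WO mice were older than the MO mice. The call of *Calca* in MY vs. MO was lost when MY1 or MY3 was left out, at log2 fold changes of 1.09 and 1.02. The genes just inside and just outside the fold change threshold in WO vs. MO were *Mmp9* at -0.70 and *Esrrg* at -0.43.

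**Figure D1:**
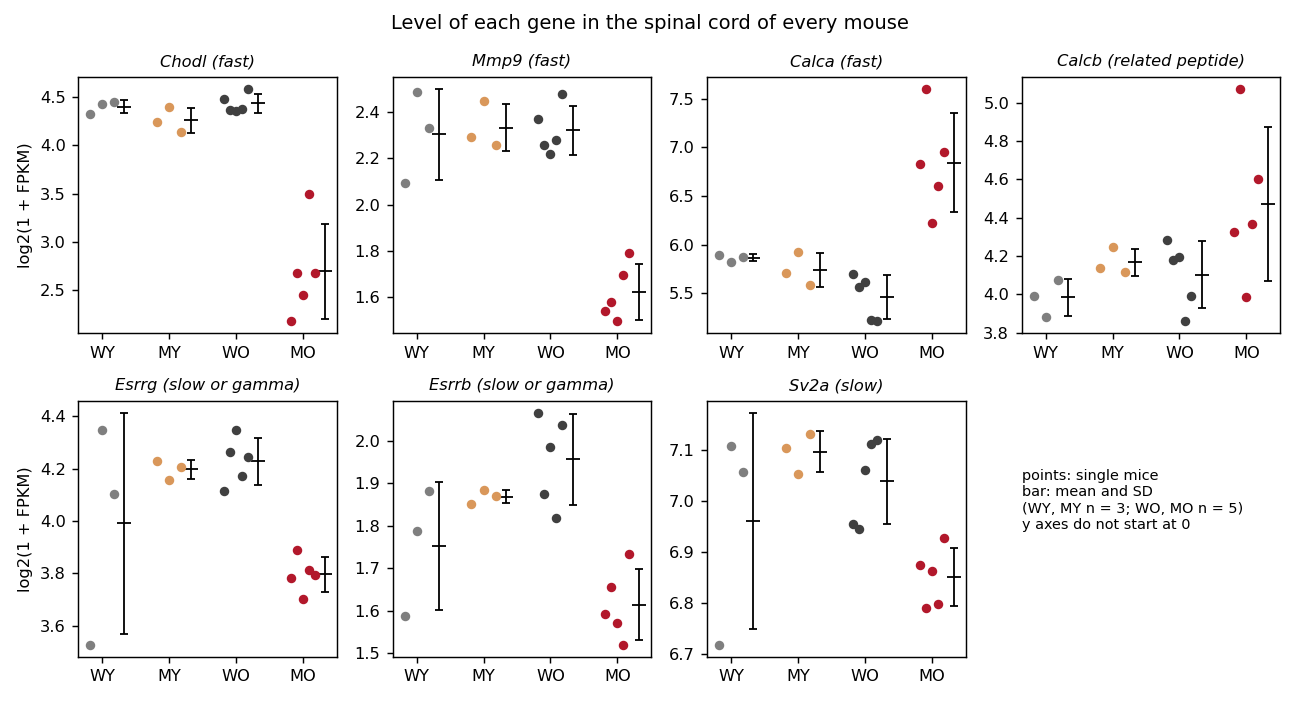
Level of each of the 7 genes, as log2(1 + FPKM) on axes that do not start at 0, in every WY, MY, WO and MO mouse (points), with the mean and SD of each group beside them. *Chodl* and *Mmp9* were lowest in the 5 MO mice and *Calca* highest, while WY1 was the lowest mouse for *Esrrg* and *Sv2a*.

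The order of the 7 genes by mean FPKM, a level per length of transcript, was alike in WY, MY and WO. *Sv2a* came first, with 124 in WY, 136 in MY and 131 in WO, followed by *Calca*, without overlap between them. *Chodl*, *Esrrg* and *Calcb* came next, of which *Chodl* and *Esrrg* overlapped in WY and in MY and *Esrrg* and *Calcb* overlapped in all 3 groups. *Mmp9* and *Esrrb* were the lowest, at 4.01 and 2.89 FPKM in WO. In MO the order was *Calca* (120), *Sv2a*, *Calcb* (21.9), *Esrrg* (12.9), *Chodl* (5.81), *Mmp9* (2.09) and *Esrrb* (2.07). There *Calca* overlapped with *Sv2a* and *Mmp9* with *Esrrb*, while the highest *Chodl* value lay below the lowest *Esrrg* and *Calcb* values.

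Fast-type and slow or gamma-type genes were contrasted in each mouse as the difference of their mean log2 levels. With *Chodl*, *Mmp9* and *Calca* as the fast genes, this difference was 0.16, -0.17 and -0.13 in WY1 to WY3 and -0.31, -0.11 and -0.41 in MY1 to MY3. It was -0.19, -0.30, -0.40, -0.41 and -0.37 in WO1 to WO5 and -0.57, -0.16, -0.66, -0.11 and -0.35 in MO1 to MO5. The MO values enclosed those of WO. The mean of MO was different from that of WO by -0.03 and from that of MY by -0.09, less than the SD within MO of 0.24. Without MO5 these differences were -0.04 and -0.10. The difference from WO had no steady sign, at -0.16 within batch 1 and 0.16 within batch 2, and at 0.02 without MO1, 0.04 without MO3 and 0.0029 without WO1. That from MY was -0.18 within batch 1, -0.04 without MO1, -0.02 without MO3, -0.14 without MO2, -0.15 without MO4, -0.01 without MY2 and -0.16 without MY3.

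With *Calca* left out, a choice made after the values were seen, the contrast of *Chodl* and *Mmp9* with the slow or gamma genes set MO apart, while WY, MY and WO overlapped. It was -0.73, -0.96 and -0.96 in WY1 to WY3 and -1.13, -0.94 and -1.20 in MY1 to MY3. It was -0.95, -1.05, -1.18, -1.04 and -0.93 in WO1 to WO5 and -2.22, -1.98, -2.07, -1.45 and -1.92 in MO1 to MO5. Every MO mouse was below all others, and the mean of MO was different from that of WO by -0.90 and from that of MY by -0.84. The difference from WO was -1.03 in batch 1 and -0.70 in batch 2. For *Calca* alone against the same genes, the difference was 2.18 to 3.49 in MO and 0.75 to 1.32 in WO.

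**Figure D2:**
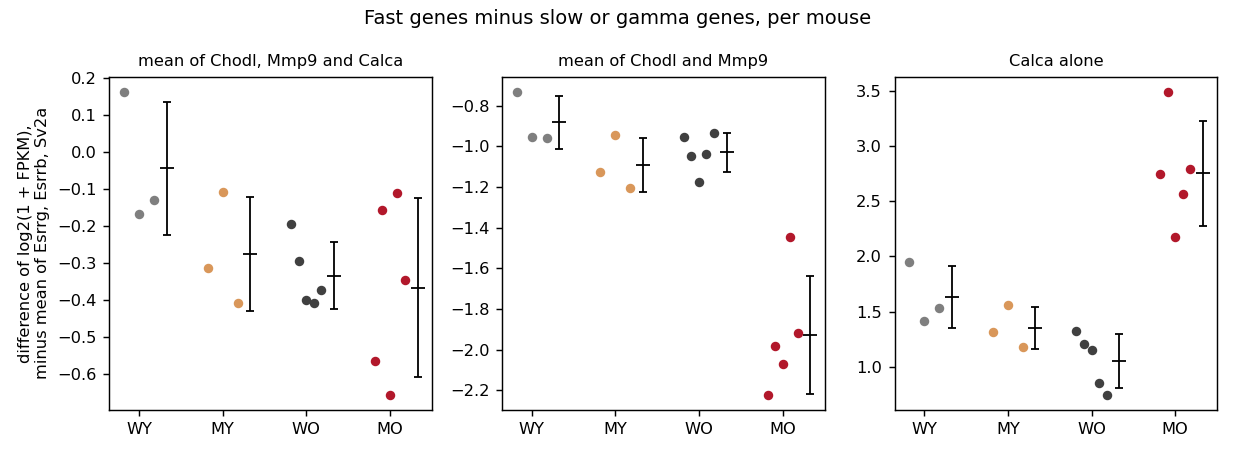
Difference between fast-type genes and the mean of *Esrrg*, *Esrrb* and *Sv2a* in log2(1 + FPKM) for every mouse, with all 3 fast genes, with *Chodl* and *Mmp9*, and with *Calca* alone, and the mean and SD of each group. With all 3 genes the MO mice spanned the WO range, with *Chodl* and *Mmp9* they lay below it, and with *Calca* above it.

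In the comparison of age in wild-type mice, WY vs. WO, limma called none of the 7 genes, where 0.253% of all genes were called. An unadjusted p under 0.05 was found for 2 of the 7 and for 13.5% of all genes. *Calca* was lower in all 5 WO than in all 3 WY mice, with a log2 fold change of -0.40 (SE 0.12, FDR = 0.182), which was -0.24 with the mice of batch 1, -0.34 without WO4 and -0.39 without WY1. *Esrrb* differed by 0.20 (SE 0.08, FDR = 0.323), or 0.12 without WY1. *Esrrg* differed by 0.24 (SE 0.16), which was 0.0029 without WY1. The value of *Chodl* was 0.03 (SE 0.06, FDR = 0.898), or -0.0037 without WY1.

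Between the genotypes before symptoms, WY vs. MY, none of the 7 genes was called by limma either, where 0.0055% of all genes were. An unadjusted p under 0.05 was found for 1 of the 7, near the 7.16% of all genes. That gene was *Calcb*, higher in all 3 MY than in all 3 WY mice by 0.18 (SE 0.07, FDR = 0.666), or 0.19 without WY1. For *Chodl* the log2 fold change was -0.14 (SE 0.08, FDR = 0.718) and for *Mmp9* 0.03 (SE 0.11, FDR = 0.958), or -0.18 and -0.08 without WY1. The differences of 0.21 for *Esrrg*, 0.12 for *Esrrb* and 0.14 for *Sv2a* became -0.03, 0.03 and 0.01 without WY1.

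Other genes of the same cell types and families were taken from 10 lists with 53 genes, of which 51 were in the table. These lists too were chosen with earlier results of these mice known. Nothing is therefore read from how their called shares compare with those of all genes. In MY vs. MO, 6 of the 51 were called higher and 2 lower in MO, and in WO vs. MO 6 higher and 4 lower. Of all genes, 4.11% were called higher and 0.787% lower in MO in MY vs. MO, and 4.08% and 0.517% in WO vs. MO. The median log2 fold change over the lists was -0.04 and -0.08. In WY vs. WO and WY vs. MY limma called none of them, and 11 and 5 had an unadjusted p under 0.05, as did 13.5% and 7.16% of all genes. In MY vs. MO and WO vs. MO such a p was found for 36.7% and 38.5% of all genes, the background of counts at that p in the lists. Without MO5 the counts in MY vs. MO and WO vs. MO were 7 and 10. Within batch 2, with 2 mice a group, the WO vs. MO count was 5, and *Vipr2*, *Mmp14*, *Timp4*, *Lcn2* and *Sv2c* were not called.

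Of 3 further genes of fast motor neurons, 1 was called in each of these comparisons. *Kcng4*, a modulatory potassium channel subunit, was at 5.12, 4.98, 5.12, 5.13 and 5.19 in WO1 to WO5 and at 4.27, 4.31, 4.36, 4.63 and 4.36 in MO1 to MO5. No MO mouse reached the WO or MY range. It fell by 0.72 (SE 0.07, FDR = 4.03e-05) in WO vs. MO and by 0.62 (SE 0.08, FDR = 0.00112) in MY vs. MO, and by 0.71 and 0.61 without MO5. Of 2 further genes of slow motor neurons, *Prkcd*, which encodes a protein kinase C, was called higher in both comparisons and *Kcnn3* in neither. *Kcnn3* had 0.10 (FDR = 0.22) in MY vs. MO, and its mean was 1.84 in MO and 1.69 in WO. *Prkcd* was at 3.86, 3.55, 3.39, 3.48 and 3.39 in WO1 to WO5 and at 4.63, 4.29, 4.40, 4.00 and 4.26 in MO1 to MO5. Its log2 fold change was 0.79 (SE 0.12, FDR = 0.000785) in WO vs. MO and 0.59 (SE 0.12, FDR = 0.00866) in MY vs. MO, and the latter was no longer called without MO1, MO3 or MY3, where *Prkcd* had 0.51, 0.57 and 0.56. Without MO5 it was 0.80 in WO vs. MO and 0.60 in MY vs. MO.

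Among 3 markers of alpha motor neurons, *Spp1*, which encodes the secreted protein osteopontin and is also made by activated microglia, rose and *Vipr2*, a receptor for vasoactive intestinal peptide, fell. *Spp1* was at 7.40, 7.30, 7.26, 6.72 and 6.84 in WO1 to WO5 and at 8.16, 8.86, 9.05, 8.26 and 8.40 in MO1 to MO5, without overlap. It rose by 1.44 (SE 0.19, FDR = 0.000376) in WO vs. MO and by 1.37 (SE 0.20, FDR = 0.00192) in MY vs. MO, or by 1.48 and 1.41 without MO5. *Vipr2* fell by 0.63 (SE 0.08, FDR = 0.00024) in WO vs. MO, from 1.69 ± 0.08 (SD, n = 5) to 1.06 ± 0.17 (n = 5), and had a log2 fold change of -0.54 in MY vs. MO, under the fold change threshold. Without MO5, *Vipr2* had -0.62 and -0.53. Of 6 further gamma motor neuron genes limma called none in either comparison with MO, and 3 and 4 of them had an unadjusted p under 0.05. The most abundant of them, *Gfra1*, a receptor for GDNF, differed by 0.28 (FDR = 0.00279) and 0.41 (FDR = 5.97e-05), and *Plch1* by -0.11 (FDR = 0.136) and 0.04 (FDR = 0.678). Without MO5, *Gfra1* had 0.28 and 0.41 and *Plch1* -0.14 (FDR = 0.0285) and 0.0052. In WO vs. MO, 3 of the 6 were higher in MO and 3 lower. Further genes of this list were named after their values were seen. *Wnt7a* was higher in MO, at 0.26 (FDR = 0.146) in MY vs. MO and 0.40 (FDR = 0.015) in WO vs. MO, with mice overlapping in both. *Creb5* and *Npas1* were lower in MO. *Creb5* had -0.56 (FDR = 0.00235) in MY vs. MO and -0.45 (FDR = 0.00273) in WO vs. MO, and *Npas1* -0.24 (FDR = 0.0286) and -0.49 (FDR = 7.45e-05). Without MO5, *Wnt7a* had 0.26 and 0.41 (FDR = 0.03), *Creb5* -0.57 and -0.46 and *Npas1* -0.25 and -0.50.

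Of 9 genes of cholinergic and motor neuron identity, *Chat* was called in WO vs. MO and limma called none in MY vs. MO, where 5 had an unadjusted p under 0.05. *Chat* encodes choline acetyltransferase, which makes acetylcholine. It was at 4.04, 3.85, 3.92, 3.96 and 3.98 in WO1 to WO5 and at 3.39, 3.25, 3.14, 3.40 and 3.20 in MO1 to MO5, without overlap. It fell by 0.67 (SE 0.06, FDR = 3.13e-05), and the difference was -0.67 within either batch. Its MY vs. MO value of -0.41 (SE 0.07, FDR = 0.0053) was under the fold change threshold, and without MO5 *Chat* had -0.65 and -0.39.

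Around *Calca* and *Calcb*, the list of relatives and receptor parts had 7 of 9 genes in the table and none was called by limma, with 5 at an unadjusted p under 0.05 in MY vs. MO and 3 in WO vs. MO. *Ramp1*, which joins the calcitonin receptor-like receptor to form the CGRP receptor, had a log2 fold change of 0.36 (SE 0.08, FDR = 0.0134) in MY vs. MO and 0.24 (SE 0.07, FDR = 0.0302) in WO vs. MO. *Ramp2*, which gives the same receptor a preference for adrenomedullin, had 0.39 (FDR = 0.0743) and 0.26 (FDR = 0.18). Without MO5, *Ramp1* had 0.35 (FDR = 0.0285) and 0.23 (FDR = 0.0602) and *Ramp2* 0.38 and 0.26. In WO vs. MO, *Ramp1* had 0.12 (FDR = 0.431) within batch 1 and 0.41 (FDR = 0.0315) within batch 2, and *Ramp2* 0.15 (FDR = 0.652) and 0.43 (FDR = 0.0444).

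Around *Mmp9*, 4 of 9 genes of the metalloproteinase system were called in MY vs. MO and in WO vs. MO, all higher in MO, and the list median was 0.28 and 0.22. *Timp1*, an inhibitor that binds MMP9, was at 1.06, 1.28, 0.66, 0.43 and 0.02 in WO1 to WO5 and at 4.12, 4.71, 4.80, 3.97 and 4.22 in MO1 to MO5. It rose by 3.67 (SE 0.24, FDR = 1.46e-05) in WO vs. MO and by 3.18 (SE 0.19, FDR = 0.000203) in MY vs. MO. No MO mouse was near the WO range. *Lcn2*, whose product lipocalin 2 forms a complex with MMP9, rose by 2.31 (SE 0.40, FDR = 0.00158) in WO vs. MO and by 2.18 (SE 0.48, FDR = 0.0117) in MY vs. MO. The *Lcn2* call in MY vs. MO was lost without MY1 (FDR = 0.0529) or MY3 (FDR = 0.051). *Mmp14*, a membrane-bound metalloproteinase, rose by 0.63 (FDR = 0.0115) in WO vs. MO and by 0.71 (FDR = 0.0207) in MY vs. MO. In WY1 to WY3 *Mmp14* was at 3.28, 3.26 and 3.28, within the MO range of 3.25 to 4.12 and above all MY and WO mice. The *Mmp14* calls were lost in WO vs. MO without MO2 (0.48) or WO1 (0.57), and in MY vs. MO without MO2 (0.55), MY1 (FDR = 0.0747), MY2 (FDR = 0.0662) or MY3 (FDR = 0.0684). *Timp4*, another inhibitor, rose by 0.61 (FDR = 0.016) in WO vs. MO and by 0.63 (FDR = 0.0458) in MY vs. MO. The *Timp4* calls were lost in WO vs. MO within batch 1 (FDR = 0.0654), without MO1 (0.48), MO2 (0.54) or WO5 (0.58), and in MY vs. MO without MO1 (0.49), MO2 (0.56), MO5 (FDR = 0.0521), MY1 (FDR = 0.134), MY2 (FDR = 0.111) or MY3 (FDR = 0.126), and also with a pseudocount of 0.1 (FDR = 0.0581) or quantile normalization (FDR = 0.0564). Without MO5, *Timp1* had 3.71, *Lcn2* 2.33, *Mmp14* 0.67 and *Timp4* 0.66 in WO vs. MO, and 3.22, 2.20, 0.75 and 0.68 in MY vs. MO.

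Of 4 genes that act with the estrogen-related receptors, none was called by limma, with an unadjusted p under 0.05 for 3 in MY vs. MO and 4 in WO vs. MO. *Esrra*, the third receptor of the family, had a log2 fold change of -0.09 (FDR = 0.358) in MY vs. MO and -0.25 (FDR = 0.00667) in WO vs. MO. *Ppargc1a*, their coactivator, had -0.20 (FDR = 0.0142) and -0.13 (FDR = 0.107). Without MO5, *Esrra* had -0.10 and -0.27 and *Ppargc1a* -0.21 and -0.14. Of 7 genes of the SV2 family and synaptic vesicles, *Sv2c* was called. It was at 4.36, 4.77, 5.19, 4.76 and 4.90 in WO1 to WO5 and at 4.10, 3.94, 3.88, 3.86 and 4.50 in MO1 to MO5, and MO5 overlapped with WO1. It fell by 0.74 (SE 0.16, FDR = 0.00575) in WO vs. MO and by 0.93 (SE 0.14, FDR = 0.0022) in MY vs. MO, or by 0.85 and 1.04 without MO5. With all groups in 1 fit, *Sv2c* was not called (FDR = 0.083 and 0.067). WY1 had *Sv2c* at 3.07, against 5.19 and 4.93 in WY2 and WY3. *Layn*, which encodes layilin, the closest relative of chondrolectin, had values of 0.01 (FDR = 0.893) and -0.11 (FDR = 0.246).

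**Figure D3:**
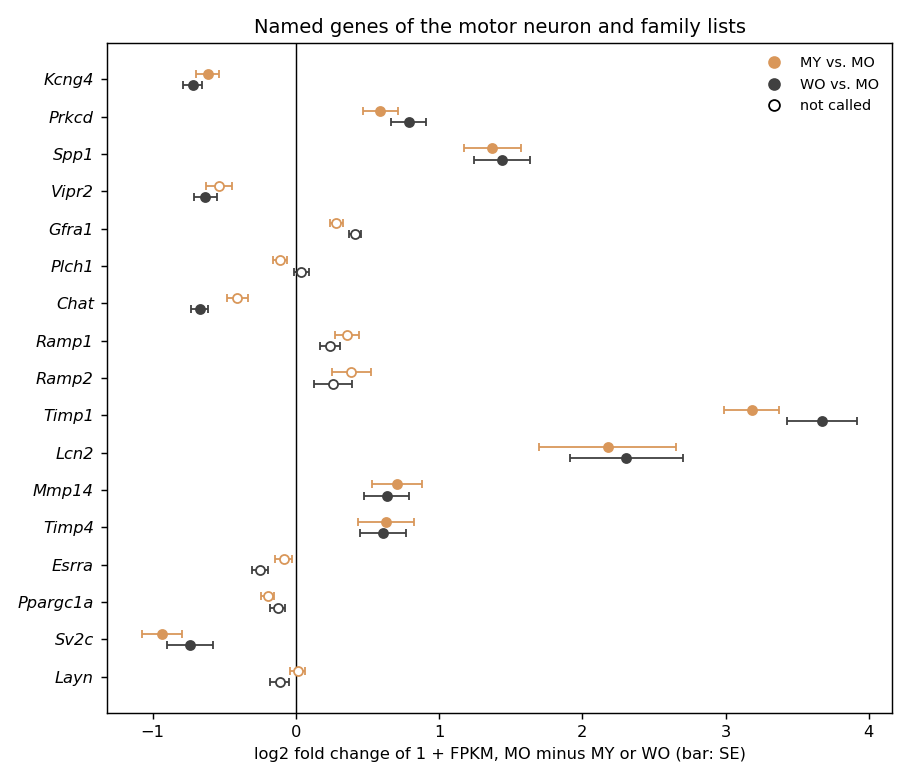
Log2 fold change of 1 + FPKM with its SE for the named genes of the 10 lists in MY vs. MO and WO vs. MO, positive where MO was higher; filled points were called. *Kcng4* and *Sv2c* were called lower and *Prkcd*, *Spp1*, *Timp1*, *Lcn2*, *Mmp14* and *Timp4* higher in both comparisons.

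Whether the change from young to old mice differed between the genotypes was tested in 1 limma fit as the difference (MO - MY) - (WO - WY). The part MO - MY holds both age and the end stage of disease, which cannot be told apart. The difference was called for 10 of the 51 list genes, where 5.61% of all genes were called. As the lists were chosen with earlier results known, nothing is read from this share. The difference was negative for *Kcng4* at -0.78 (FDR = 0.000875), *Vipr2* at -0.68 (FDR = 0.000909) and *Chat* at -0.85 (FDR = 0.00307). It was positive for *Spp1* at 1.33 (FDR = 0.00373), *Timp1* at 3.57 (FDR = 4.43e-05) and *Mmp14* at 1.10 (FDR = 0.00294), all kept without MO5 or WY1. Without MO5 the count was 10 as well. Without WY1 it was 6, since *Lcn2*, *Slc5a7*, *Slc18a3* and *Creb5* were no longer called, the last 3 of which were named after their values were seen. Of the 7 genes, chosen with the MO values known, the same fit called 4, which were *Chodl* (-1.60), *Mmp9* (-0.73), *Calca* (1.51) and *Esrrg* (-0.64), and nothing is read from this count. It was 4 without MO5 as well. The call of *Esrrg* was lost within batch 1 (-0.66) and without MY1 (-0.62), MY3 (-0.63) or WY1 (-0.40).

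Markers of other cells were measured in the same mice. Of 7 sensory neuron markers 6 were in the table and none was called by limma, with 3 at an unadjusted p under 0.05 in each of MY vs. MO and WO vs. MO. *Scn10a* and *Trpv1*, which define pain-sensing neurons, were at or near 0, at most 0.02 and 0.12 in any mouse. *Pou4f1* was the most abundant of the list. The summed FPKM of the 6 markers was 3.14, 3.72 and 3.29 in WY1 to WY3 and 3.61, 3.46 and 3.58 in MY1 to MY3. The sum was 3.25, 3.59, 3.52, 3.45 and 3.05 in WO1 to WO5 and 3.24, 3.22, 3.37, 3.60 and 3.23 in MO1 to MO5. The sums of the groups overlapped. *Avil*, a gene of peripheral sensory neurons singled out after its values were seen, was low but differed by 0.36 (FDR = 0.00239) in WO vs. MO and 0.39 (FDR = 0.006) in MY vs. MO, or 0.34 and 0.36 without MO5. The part of sensory neurons in the *Calca* result was not tested.

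Of 5 peptide genes of the dorsal horn none was called by limma in the fits of all mice, and 2 in MY vs. MO and 3 in WO vs. MO had an unadjusted p under 0.05. Their summed FPKM, led by *Tac2*, was 201, 128 and 155 in WY1 to WY3, 131, 146 and 130.3 in MY1 to MY3, and 125, 143, 132, 128 and 115 in WO1 to WO5. It was 126, 178, 168, 193 and 169 in MO1 to MO5, above all WO mice in all but MO1 and overlapping with WY. *Tac1* had a log2 fold change of 0.34 (FDR = 0.0137) in WO vs. MO, or 0.35 (FDR = 0.0276) without MO5. Calls differed between the batches in WO vs. MO. Within batch 2 limma called *Tac2* at 0.77 (FDR = 0.0208) and *Nts* at 0.63 (FDR = 0.0107), which had 0.09 (FDR = 0.836) and 0.26 (FDR = 0.33) within batch 1. Within batch 1 it called *Gal* at 0.59 (FDR = 0.00459), which had 0.02 (FDR = 0.951) within batch 2. *Nts* and *Gal* were named after their values were seen. The part of these neurons in the *Calca* result was not tested.

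Neutrophil markers, of which 5 of 7 were in the table, varied between mice, and limma called none, with 0 at an unadjusted p under 0.05 in MY vs. MO and 1 in WO vs. MO. *S100a8* had the highest mean in MY, WO and MO and *S100a9* in WY, and *Ltf* was at 0.51 or less. The summed FPKM was 1.30, 2.16 and 1.67 in WY1 to WY3 and 6.07, 2.96 and 2.81 in MY1 to MY3. It was 8.22, 36.0, 3.40, 7.07 and 6.35 in WO1 to WO5 and 7.06, 8.02, 0.889, 4.61 and 0.848 in MO1 to MO5. The sum was highest in WO2, where *Mmp9* was at 2.26, and it overlapped between MO and WO. Its part in the *Mmp9* result was not tested.

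Of 6 microglia markers, all in the table, 5 were called higher in MY vs. MO and 4 in WO vs. MO, and none was at 0. The summed FPKM, led by *Csf1r*, was 74.5, 77.7 and 73.4 in WY1 to WY3 and 75.6, 80.9 and 77.3 in MY1 to MY3. It was 76.6, 80.2, 80.6, 69.1 and 64.1 in WO1 to WO5 and 141, 175, 183, 144 and 147 in MO1 to MO5, with no overlap between MO and the rest. *Csf1r*, the receptor on which microglia depend, rose by 1.28 (FDR = 1.5e-05) in WO vs. MO and *Aif1* by 1.75 (FDR = 0.000305), or by 1.31 and 1.79 without MO5. In MY vs. MO the call of *Tmem119* was lost without MO2 (0.54), MO5 (0.56) or MY3 (0.58). The sum was thus high in MO, the group in which *Spp1*, *Timp1* and *Calca* were high and *Chodl* and *Mmp9* low. This is a match of groups and not of single mice. Within MO the highest sum was in MO3, which had the lowest *Calca* (6.22), and the lowest in MO1, which had the lowest *Chodl* (2.18). The part of microglia in these results was not tested.

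Markers of skeletal muscle and Schwann cells were low and limma called none in the comparisons with MO. An unadjusted p under 0.05 was found for 0 muscle and 1 Schwann cell genes in MY vs. MO and for 2 and 0 in WO vs. MO. The 5 muscle genes summed to 1.55 to 3.75 FPKM over the 16 mice, most of it *Mylpf*, with *Myh4* near 0, and the 4 Schwann cell genes summed to 1.29 to 2.50, most of it *Ncmap*. Among the spinal cord markers, *Slc6a5* was called lower in MO in both comparisons. It fell by 0.84 (FDR = 0.00298) in MY vs. MO and by 0.78 (FDR = 0.00224) in WO vs. MO, or by 0.95 and 0.89 without MO5. *Slc6a5* was not called in MY vs. MO with all groups in 1 fit (FDR = 0.0707) or in WO vs. MO within batch 2 (FDR = 0.103). The sum of the 8 spinal cord markers was set by *Mbp* and ran from 3608 in WO4 to 22282 in WO5.

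The genes whose levels over the 16 mice were most like those of each member were sought by Pearson r among 13523 other genes with a mean of at least 1. For *Chodl* they were *Smim10l2a* (0.985), *Apln* (0.973), *Kcns3* (0.971), *Osbpl1a* (0.970) and *Nefh* (0.968). *Nefh*, the heavy neurofilament, was at 7.53 ± 0.18 (SD, n = 5) in MO and 8.27 ± 0.12 (n = 5) in WO. After the group means were removed, r was 0.947 for *Smim10l2a* and 0.776 to 0.886 for the other 4. Here too the MO mice weigh most, since the SD of *Chodl* was 0.49 in MO and at most 0.13 in any other group. For *Mmp9* the most alike were *Tmem229b* (0.978) and *Pcyt1b* (0.977), and for *Calca* they were *Ckap2* (0.963), *Cpe* (0.945) and *Eif3e* (0.943). For *Calcb* they were *Crem* (0.867), *Rgs2* (0.860) and *Bdnf* (0.841). The slow or gamma genes had other neighbors, which were *St8sia1* (0.980), *Pdpk1* (0.979) and *Cadps* (0.977) for *Esrrg*, *Esyt1* (0.966), *Klc2* (0.949) and *Ndrg4* (0.942) for *Esrrb*, and *Clcn6* (0.979), *Kif3c* (0.976) and *Sik2* (0.971) for *Sv2a*. With the group means removed, the values for *Esrrg* and *Sv2a* were between 0.943 and 0.975. Without WY1, a choice made after the values were seen, they were 0.805 to 0.884 for *Esrrg* and 0.854 to 0.927 for *Sv2a*. These values describe the same mice in which the groups differ and carry no test.

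The 7 genes lie apart in the genome, except that *Calca* and *Calcb* share chromosome 7. In GENCODE M21 on GRCm38, *Chodl* spans 78930948 to 78951733 on chromosome 16, *Mmp9* 164940780 to 164955850 on chromosome 2 and *Calca* 114631478 to 114636357 on the reverse strand of chromosome 7. *Calcb* spans 114718643 to 114723365 on the forward strand of chromosome 7 and *Sv2a* 96181151 to 96195521 on chromosome 3. *Esrrg* is the longest, from 187608791 to 188214885 on chromosome 1, and *Esrrb* runs from 86361117 to 86521628 on chromosome 12. A promoter in the RefSeq table of GRCm38.p6 matched 5 of the 7 symbols, all but *Mmp9* and *Calcb*.

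The promoters of *Chodl* and *Calca*, the fast-type genes with the largest differences in MO, of opposite sign, are shown as the 250 bases before the start of the gene, 5′ to 3′ on the strand of the gene. That of *Chodl* is chr16:78930698-78930947 on the forward strand and that of *Calca* chr7:114636358-114636607 on the reverse strand, and neither overlaps an exon of its gene in GENCODE M21. Capitals mark matches to the motifs searched on both strands.
*Chodl*: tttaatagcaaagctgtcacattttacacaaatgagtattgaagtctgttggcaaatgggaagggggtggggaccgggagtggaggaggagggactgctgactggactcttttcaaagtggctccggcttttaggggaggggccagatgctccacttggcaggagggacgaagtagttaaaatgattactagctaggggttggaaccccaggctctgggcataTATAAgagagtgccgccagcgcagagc
*Calca*: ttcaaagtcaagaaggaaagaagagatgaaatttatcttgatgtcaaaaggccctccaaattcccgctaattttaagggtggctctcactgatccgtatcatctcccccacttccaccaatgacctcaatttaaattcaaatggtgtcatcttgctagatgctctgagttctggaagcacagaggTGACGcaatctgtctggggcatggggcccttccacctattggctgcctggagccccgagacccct
The TATA-like letters TATAA stood 27 bases before the start of *Chodl* and were found in 22.8% of 32851 promoter windows of this length. The letters TGACG, the core of the cyclic AMP response element, stood 65 bases before the start of *Calca* and were found in 17.8% of windows. The E-box CAGCTG (13.0% of windows) and the estrogen-related receptor motif AAGGTCA (4.08%) were not in either window. The matches describe these windows and do not overlap.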

How the data were processed

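Spinal cord RNA of 16 mice was sequenced by the authors from stranded mRNA libraries, 1 library per mouse. Trimmomatic was used for cleaning the reads, TopHat for alignment to mm10 and Cufflinks for FPKM. They removed genes at 0 in many samples and corrected log2(1 + FPKM) for batch with ComBat. Versions, gene annotation and ComBat covariates are not given in the sources used here. The deposited log2 values were used as they stand, for 18167 genes. Read counts and depth per gene were not analysed here.

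Each pair of groups was fitted with limma 3.58.1 in R 4.3.3 (lmFit and eBayes, two-sided) over all genes, second group minus first, and the interaction of age and genotype on all 16 mice. The code was tested on simulated data. A call needed FDR ≤ 0.05 together with a change of 1.5-fold or more. The members and lists were chosen with earlier results of these data known. For members the values and calls that involve MO are therefore a description, with no p given. For list genes p and FDR are given, but the lists are not an independent choice. From each list up to 6 genes called against MO were named, or where there were none up to 2 of the highest mean. Values and figures were made with Python 3.11.15, NumPy 2.4.6, pandas 2.3.3 and matplotlib 3.10.9. Alternatives were the mice of a single batch, batch as a term, genes with a mean of at least 1, log2(FPKM + 0.1), all groups in 1 fit, quantile normalization, a trended prior, leaving out each mouse and blocking on replicate number. Leaving *Calca* out of the contrast and WY1 out of the likeness of genes was chosen after seeing the data. Results of some genes are not reported here.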

Additional observations from a re-analysis of the deposited data

Results flagged for a closer look

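In groups of 5 mice, the distance of the highest or lowest mouse to its neighbor was set against the range of the group. The members, their contrasts, the named list and marker genes, *Xist*, *Ddx3y* and *Mbp* were checked, *Mbp* after its values were seen. Of 92 groups of values, 9 had a mouse apart by Dixon's limit of 0.71, a limit that about 1 in 20 groups passes by chance. In MO these were *Xist* at 3.21 and *Ddx3y* at 1.95 in MO5, *Kcng4* at 4.63 in MO4, *Plch1* at 2.56 in MO5, *Mmp14* at 4.12 in MO2 and *Esrra* at 4.61 in MO1. In WO they were *Mbp* at 5.36 in WO4, *Lcn2* at 2.28 in WO1 and *Mylpf* at 1.99 in WO3. None of the 7 members had such a mouse.

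For *Calca*, every MO mouse was above every MY mouse while every WO mouse was below every WY mouse. The changes from young to old mice differed by 1.51, given as a description since *Calca* was chosen with these values known. For list and marker genes the difference of these changes, which in mutant mice include disease, was tested with limma. It passed with a negative value for *Kcng4* (-0.78), *Vipr2* (-0.68), *Chat* (-0.85), *Slc5a7* (-0.75), *Slc18a3* (-0.64) and *Creb5* (-0.67). It passed with a positive value for *Spp1* (1.33), *Timp1* (3.57), *Lcn2* (2.18), *Mmp14* (1.10), *Aif1* (2.09), *Csf1r* (1.15), *Cx3cr1* (1.10), *Itgam* (0.87) and the dorsal horn gene *Nts* (0.62). Of 23 alternatives, the call of *Creb5* was lost in 8, that of *Slc5a7* in 4, that of *Slc18a3* in 3, and those of *Lcn2* and *Itgam* in 1 each. Without WY1, *Creb5* had -0.44 (FDR = 0.0658) and *Slc5a7* -0.49 (FDR = 0.0361), and within batch 1 *Itgam* had 0.82 (FDR = 0.0569). The call of *Nts* (FDR = 0.0498) was lost in 15 of 23 alternatives, among them those without MO5 (FDR = 0.0707) and without WY1 (FDR = 0.146).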

How the results depend on the processing

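Of 441 log2 fold changes of the members under 25 alternatives, 435 moved by less than 1 SD between mice and no called one changed sign. The other 6 were those of *Mmp9* and *Esrrb* with a pseudocount of 0.1 and of *Esrrb* with quantile normalization. Part of the 435 could not move, since the trended prior, all groups in 1 fit and the filter on the mean keep the group means. The same holds for the block on replicate number in WO vs. MO and WY vs. MY, and for batch as a term in WO vs. MO. The count of 435 is therefore no measure of stability. Leaving out each mouse in turn gave 5 to 10 called list genes in MY vs. MO, with 5 without MY1 and without MY3, 8 to 10 in WO vs. MO and 0 in WY vs. WO and WY vs. MY, and 6 to 14 for the interaction, with 6 without WY1. Within batch 2 the WO vs. MO count was 5, from 4 mice. The contrast of fast with slow or gamma genes ranged from -0.16 to -0.01 in MY vs. MO, -0.10 to 0.04 in WO vs. MO, -0.35 to -0.19 in WY vs. WO and -0.32 to -0.13 in WY vs. MY when single mice were left out, and was 0.16 in WO vs. MO within batch 2, the cause of which was not tested. Without *Calca* it was -0.84 in MY vs. MO, -0.90 in WO vs. MO, -0.15 in WY vs. WO and -0.21 in WY vs. MY. With the replicate number as a block, list genes called were 10 in MY vs. MO, 10 in WO vs. MO, 0 in WY vs. WO and WY vs. MY and 10 for the interaction, and the contrast was -0.18, -0.03, -0.25 and -0.23. Mice of equal number deviated together with r from -0.235 to 0.405, so the numbers do not pair the mice. The calls over all genes moved from 890 to 1483 in MY vs. MO and from 836 to 1529 in WO vs. MO and from 1020 to 1548 for the interaction with a pseudocount of 0.1, and in WY vs. WO from 46 to 73 in batch 1, 80 with batch as a term and 7 to 64 with single mice left out. In WY vs. MY it moved from 1 to at most 5, without WY1. The depth per gene is unknown, so no limit of detection is given.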
